A study of Mus musculus with 45 samples.

Results

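The 31 genes described here cover the cholesterol economy of the macrophage: 18 enzymes of cholesterol synthesis, 5 genes that control the sterol-sensing transcription factors SREBP1 and SREBP2, 3 genes of oxysterol production and sensing, and 5 genes of cholesterol efflux, transfer, storage and uptake control. They were chosen by name from the 24421 genes of the deposited table. All 31 were among the 11380 genes that reached at least 1 CPM (reads of a gene, scaled to a fixed total of assigned reads per library) in at least 3 libraries and were tested. The cells were bone-marrow-derived macrophages of C57BL/6 mice, grown with L929-conditioned medium, a source of macrophage colony-stimulating factor, and used on day 7 of differentiation. They were left untreated, or given, for 2 h or 4 h, IFN-γ at 100 ng/ml, IL-4 at 10 ng/ml or both at once. Each of the 7 groups had 3 libraries of poly(A) RNA, numbered 1 to 3, and the 1 untreated group, for which the labels give no time, served all 6 comparisons with treated cells. The other 24 samples of the series are not analysed here.

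Cells make cholesterol from acetyl-CoA through the mevalonate arm, which ends with squalene, and the sterol arm, which closes and trims the rings. When membranes are poor in sterol, SCAP carries SREBP2 from the endoplasmic reticulum to the Golgi for cleavage, and the freed factor turns on the synthesis genes, while INSIG proteins hold the complex back when sterol is plentiful. Oxysterols such as 25-hydroxycholesterol, made by CH25H, strengthen that hold and activate the liver X receptors (LXR), which in macrophages turn on the exporters ABCA1 and ABCG1 and the ubiquitin ligase MYLIP, and Ch25h is a known interferon-induced gene of macrophages.

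The libraries held 28920801 to 80028327 assigned reads. Precursor ribosomal RNA (Rn45s) took 0.151%, 43.2% and 15.7% of the reads of untreated replicates 1, 2 and 3, and at most 3.21% in a treated library. Reads of 1 gene at that level lower the CPM of every other gene, so the CPM were rescaled by median-ratio factors (0.577 to 1.21). Against untreated cells the median gene differed in the deposited values by 0.10 to 0.43, on the log2 scale, and after rescaling by at most 0.01. A call, worded as a rise or a fall, needed from limma a Benjamini-Hochberg adjusted p under 0.05 in the same direction on rescaled and on deposited values, with the replicate number as a block. All CPM below are rescaled values of replicates 1, 2 and 3 in that order, log2 changes are on the log2(rescaled CPM + 1) scale with their standard error (n = 3 libraries per group), and adjusted p values are those of limma on the rescaled values. CPM are not divided by gene length, so levels are compared within a gene only. Whether the 3 libraries of a group stem from different mice or dishes is not said in the labels. The p values and standard errors rest on the spread left among these libraries after the block took out the replicate differences, pooled over all groups. That spread may be technical. Defining markers of macrophages (Adgre1, Csf1r and 4 others) summed to 6264 to 10994 CPM in all 21 libraries, and the 4 T cell markers to 2.53 to 26.8 CPM. Most of the latter was Cd4 (1.85 to 26.2 CPM), and Cd3e and Cd3g stayed at 0.0746 CPM or less. IFN-γ raised its target Gbp2 (log2 change at 4 h 7.77 ± 0.31) and IL-4 raised its target Irf4 (3.48 ± 0.17).

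RefSeq promoter sequences (build GRCm38.p6) were at hand for 26 of the 31 genes, and the 250 bases before each listed start were searched on both strands. Those of Hmgcs1, Mvk, Pmvk and Ebp are printed because the 4 genes stand for the responses described below: Hmgcs1 and Mvk for the synthesis genes that were lower with both cytokines than with IL-4, Pmvk and Ebp for the only synthesis genes that rose with IFN-γ at both times. Mvk had the smallest change of the synthesis genes called lower with both than with IL-4 at 4 h. Each runs 5′ to 3′ along the gene, and capitals mark the CCAAT box (CCAAT or, on the other strand, ATTGG) and the sterol regulatory element (TCACNCCAC). For Mvk the 42 outermost bases, which lie in an exon of its neighbour Mmab, are left out.
Hmgcs1 (chr13:119690101-119690350, plus strand): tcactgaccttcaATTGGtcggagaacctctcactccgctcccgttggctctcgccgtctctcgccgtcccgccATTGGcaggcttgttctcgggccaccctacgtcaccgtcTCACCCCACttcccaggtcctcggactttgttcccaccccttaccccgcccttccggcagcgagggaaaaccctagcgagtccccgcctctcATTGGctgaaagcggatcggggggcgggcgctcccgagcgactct
Mvk (chr5:114444061-114444268, plus strand): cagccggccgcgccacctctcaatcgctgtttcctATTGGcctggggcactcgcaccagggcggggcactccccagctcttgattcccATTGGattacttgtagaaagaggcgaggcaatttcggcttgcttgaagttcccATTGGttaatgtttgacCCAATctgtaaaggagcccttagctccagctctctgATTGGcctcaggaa
Pmvk (chr3:89454291-89454540, plus strand): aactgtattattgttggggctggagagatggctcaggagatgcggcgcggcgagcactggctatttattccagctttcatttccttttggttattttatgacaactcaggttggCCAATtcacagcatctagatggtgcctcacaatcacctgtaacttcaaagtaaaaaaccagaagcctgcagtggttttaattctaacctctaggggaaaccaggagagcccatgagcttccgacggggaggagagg
Ebp (chrX:8193513-8193762, minus strand): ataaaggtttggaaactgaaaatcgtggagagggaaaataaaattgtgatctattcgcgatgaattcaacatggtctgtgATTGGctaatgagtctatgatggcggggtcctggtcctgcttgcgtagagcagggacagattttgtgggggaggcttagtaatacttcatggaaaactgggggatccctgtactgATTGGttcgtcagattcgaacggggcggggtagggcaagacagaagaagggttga
A CCAAT box, the site of the factor NF-Y, lay before at least 1 start of 14 of the 15 synthesis enzymes with a promoter (Acat2 was the exception) and of 6 of the 11 other members, against 37.5% of the 27025 genes of the promoter table. Mvk held 5 such boxes. The sterol regulatory element, as spelled, was found in Hmgcs1 alone among the members, 137 bases before the start (TCACCCCAC), and in 1.22% of all genes. The STAT6 site was in no member (6.76% of all genes). The LXR element, searched as a spaced repeat of AGGTCA with few mismatches allowed, matched only before the third listed start of Dhcr7 (2.96%). A promoter without a match, such as that of Abca1, may still hold a site further from this spelling. These matches describe letters in a window and were not tied to any measured binding.

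By calls that needed both scalings, more of the 31 genes were called with both cytokines at 4 h than with 1 cytokine, as was also true of all genes tested. IL-4 raised 3 and lowered 2 at 2 h and raised 5 and lowered 3 at 4 h, where 14% and 1.85% of all genes tested were called higher and lower at 2 h and 23.9% and 5.04% at 4 h. IFN-γ raised 5 and lowered 1 at 2 h (all genes 19.8% and 3.57%) and raised 6 and lowered 3 at 4 h (24% and 13.8%). Both cytokines raised 5 and lowered 3 at 2 h (22.5% and 5.18%). At 4 h both cytokines raised 6 (19.4% of the 31, all genes 30.7%) and lowered 9 (29.0%, all genes 14.2%). The median log2 change of the 31 at 4 h was 0.06 with IL-4, -0.08 with IFN-γ and -0.27 with both, beside -0.01, 0.00 and 0.00 over all genes tested. With both cytokines the share of members that fell was above that of all genes, on both scalings together and on each alone. On the rescaled values alone, which do not carry the shift of the untreated libraries, both cytokines lowered 12 members and raised 5 at 2 h (all genes 20.9% and 22.6%), and lowered 15 and raised 6 at 4 h (33.4% and 33.4%). IFN-γ there lowered 10 and raised 5 at 2 h (17.9% and 20.2%), and lowered 8 and raised 8 at 4 h (30.8% and 32.5%). IL-4 lowered 4 and raised 3 at 2 h (11.5% and 14%), and lowered 4 and raised 5 at 4 h (23.6% and 23.9%). The share that fell with IFN-γ at 2 h, which rests on 1 gene when both scalings are required, thus turned from below to above that of all genes, and the share with IL-4 at 4 h from above to below. On the deposited values alone IL-4 raised 11 and lowered 2 at 2 h (all genes 36.2% and 1.88%), and raised 23 and lowered 3 at 4 h (48.1% and 5.07%). Without the block IL-4 raised 2 at 2 h (all genes 5.51%), and raised 2 and lowered 1 at 4 h (12% and 2.52%). Both cytokines then lowered 1 at 2 h and 4 at 4 h (2.71% and 8.46%).

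**Figure D1:**
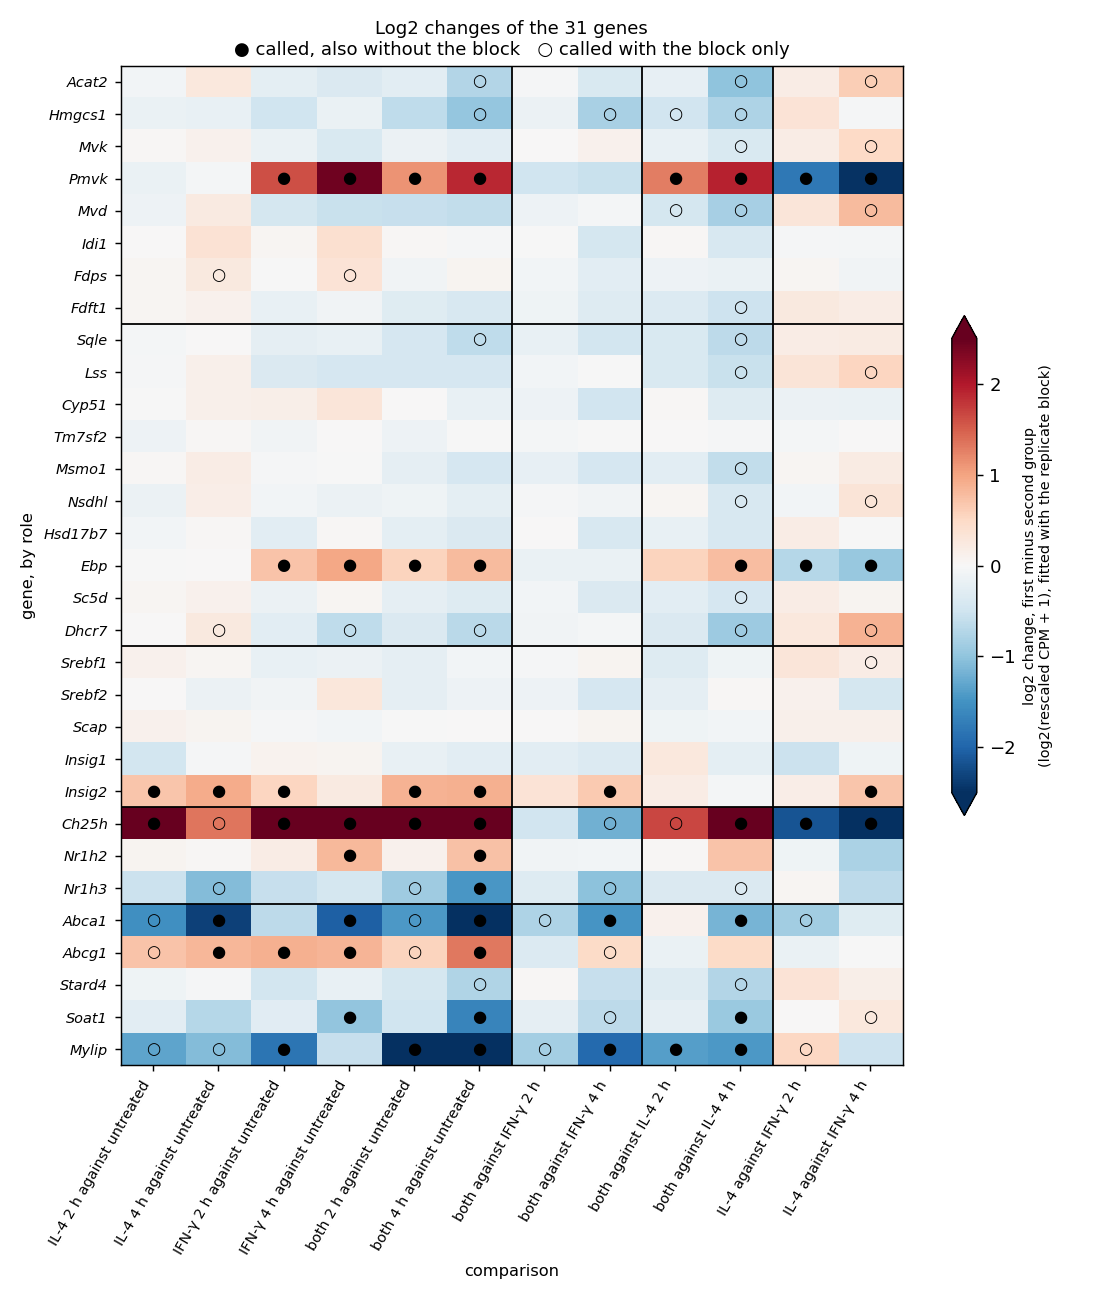
Log2 changes of the 31 genes (rows, grouped by role: mevalonate arm, sterol arm, SREBP control, oxysterol and LXR, efflux, transfer and storage) in 12 comparisons (columns), with red for higher and blue for lower in the first-named group and colours saturated beyond 2.5. Filled circles mark genes called with and without the replicate block, open circles those called with the block only: Ch25h, Abca1, Abcg1, Mylip, Insig2, Pmvk and Ebp carry most filled circles, and the other synthesis enzymes carry open circles only.

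Ch25h, which encodes the enzyme that makes 25-hydroxycholesterol (chromosome 19, 34473778 to 34475164, GRCm38, annotation GENCODE vM21), was low in untreated cells and rose with every treatment. Untreated libraries held 1.06, 3.35 and 1.70 CPM. With IL-4 the gene stood at 16.8, 45.2 and 14.2 CPM at 2 h and 3.82, 18.7 and 3.11 CPM at 4 h. With IFN-γ it stood at 62.7, 167 and 103 CPM at 2 h and 135, 169 and 194 CPM at 4 h. All IFN-γ libraries lay above all IL-4 libraries of the same time, and only IL-4 replicate 3 at 4 h fell inside the untreated range. With both cytokines the values were 55.6, 123 and 57.3 CPM at 2 h and 43.8, 128 and 63.4 CPM at 4 h. The log2 change against untreated cells was 3.01 ± 0.29, adjusted p = 5e-07, with IL-4 at 2 h and 1.34 ± 0.29, adjusted p = 0.001, at 4 h. With IFN-γ it was 5.16 ± 0.29, adjusted p = 3.9e-10, at 2 h and 5.83 ± 0.29, adjusted p = 3.1e-11, at 4 h, higher in 3 of 3 pairs of libraries in each case. With both cytokines it was 4.68 ± 0.29 at 2 h and 4.64 ± 0.29 at 4 h. From bulk RNA, more cells expressing a gene and more RNA per cell cannot be told apart. The 159 exon bases that Ch25h shares with the noncoding gene Gm26902 on the other strand cannot be assigned, because the strandedness of the counting is not given in the sources used here.

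The response of Ch25h to IL-4 faded between 2 h and 4 h (log2 difference -1.67 ± 0.29, adjusted p = 0.00062, lower in 3 of 3 pairs), and its responses to the cytokines did not add up. The change with both was smaller than the sum of the single changes on the log2 scale, with an interaction term of -3.49 ± 0.41 at 2 h (adjusted p = 7.5e-05) and -2.53 ± 0.41 at 4 h (0.00052), where 1.6% and 6.56% of all genes were called lower. Against IL-4 alone Ch25h was higher with both at 2 h (1.68 ± 0.29, adjusted p = 0.0002, lost without the block at 0.12) and at 4 h (3.30 ± 0.29, adjusted p = 4.7e-08). At 4 h Ch25h was lower with both cytokines than with IFN-γ alone (-1.20 ± 0.29, adjusted p = 0.0038), and all 3 combined libraries lay below all 3 IFN-γ libraries. That call was lost without replicate 1 or 3 of every group (adjusted p 0.1 to 0.13), and without the filter on low values (adjusted p = 0.06 in the deposited fit). Without the block the IL-4 change at 4 h (adjusted p = 0.12), the fall from 2 h to 4 h (0.41), the interaction at 2 h (0.1) and 4 h (0.17) and the difference from IFN-γ (0.45) were not called. The smallest log2 change of Ch25h against untreated cells, 1.34 with IL-4 at 4 h, kept its call under each left-out library.

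The 2 cholesterol exporters of the list moved in opposite directions: Abcg1 rose with all 6 treatments, and Abca1 fell with the 5 other than IFN-γ at 2 h. Abca1, which loads cholesterol onto lipid-poor apolipoprotein (chromosome 4, 53030787 to 53159895), stood at 436, 248 and 311 CPM in untreated cells. IL-4 brought it to 139, 103 and 95.02 CPM at 2 h and 103, 40.7 and 59.2 CPM at 4 h. All 6 of these libraries lay below the lowest untreated one. IFN-γ left it at 274, 160.2 and 192 CPM at 2 h and brought it to 101, 87.6 and 52.99 CPM at 4 h. With both cytokines it held 165, 96.7 and 105 CPM at 2 h and 43.1, 26.9 and 17.8 CPM at 4 h, the last being the lowest levels of the 7 groups. Of the treated groups IFN-γ at 2 h alone overlapped the untreated libraries. The log2 change was -1.54 ± 0.19, adjusted p = 8.1e-06, with IL-4 at 2 h, -2.34 ± 0.19, adjusted p = 2.4e-08, at 4 h and -2.04 ± 0.19, adjusted p = 5.7e-08, with IFN-γ at 4 h. With both cytokines Abca1 fell by 1.43 ± 0.19 at 2 h and by 3.51 ± 0.19 at 4 h on the log2 scale. IFN-γ at 2 h gave -0.66 ± 0.19, adjusted p = 0.0093, on the rescaled values, and was not called because the deposited values gave an adjusted p of 0.23. At 4 h the combination was lower than IFN-γ alone (-1.47 ± 0.19, adjusted p = 9.7e-06) and lower than IL-4 alone (-1.16 ± 0.19, adjusted p = 5e-05), in 3 of 3 pairs each. At 2 h it was lower than IFN-γ alone by 0.77 (adjusted p = 0.011), a call that ended when any 1 of the 6 libraries concerned was left out (adjusted p 0.062 to 0.53) and without the filter on low values (0.34). When the block was left out the 2 h calls of IL-4 (adjusted p = 0.057), both cytokines (0.052) and the combination against IFN-γ (1) were lost, and the 4 h calls held.

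Abcg1, which moves cholesterol to high-density lipoprotein (chromosome 17, 31057675 to 31117988), rose with each treatment. Its untreated libraries held 124, 186 and 123 CPM, with replicate 2 the highest, as it was in every group. It stood at 219.9, 286 and 202 CPM with IL-4 at 2 h and 240.3, 322 and 211 CPM at 4 h. With IFN-γ the values were 249, 287 and 254 CPM at 2 h and 219.7, 346 and 221 CPM at 4 h. Both cytokines gave 203, 238 and 186 CPM at 2 h and 326, 453 and 304 CPM at 4 h. No treated group overlapped the untreated libraries, although the lowest combined library at 2 h lay just above the highest untreated one. The log2 changes were 0.71 ± 0.08 and 0.84 ± 0.08 with IL-4 at 2 h and 4 h, 0.89 ± 0.08 and 0.85 ± 0.08 with IFN-γ, and 0.55 ± 0.08 and 1.32 ± 0.08 with both (adjusted p 4.2e-10 to 3.6e-05). With both cytokines Abcg1 rose further from 2 h to 4 h (0.77 ± 0.08, adjusted p = 1.5e-06), a call lost without replicate 3 of every group (adjusted p = 0.21). At 2 h the combined change was smaller than the sum of the single ones (interaction term -1.05 ± 0.12, adjusted p = 5.3e-05), a call that ended without replicate 3 of every group (adjusted p = 0.092). The difference from IFN-γ at 4 h (0.47 ± 0.08, adjusted p = 0.00031) was lost without replicate 1 or 3 of every group, IFN-γ 4 h replicate 1 or 3 or combined 4 h replicate 1, 2 or 3 (adjusted p 0.072 to 0.56). Without the block the 2 h calls with IL-4 (adjusted p = 0.053) and with both (0.087), the rise from 2 h to 4 h (0.14), the interaction (0.3) and the difference from IFN-γ (0.29, and 0.052 with the block but without the filter) were lost.

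**Figure D2:**
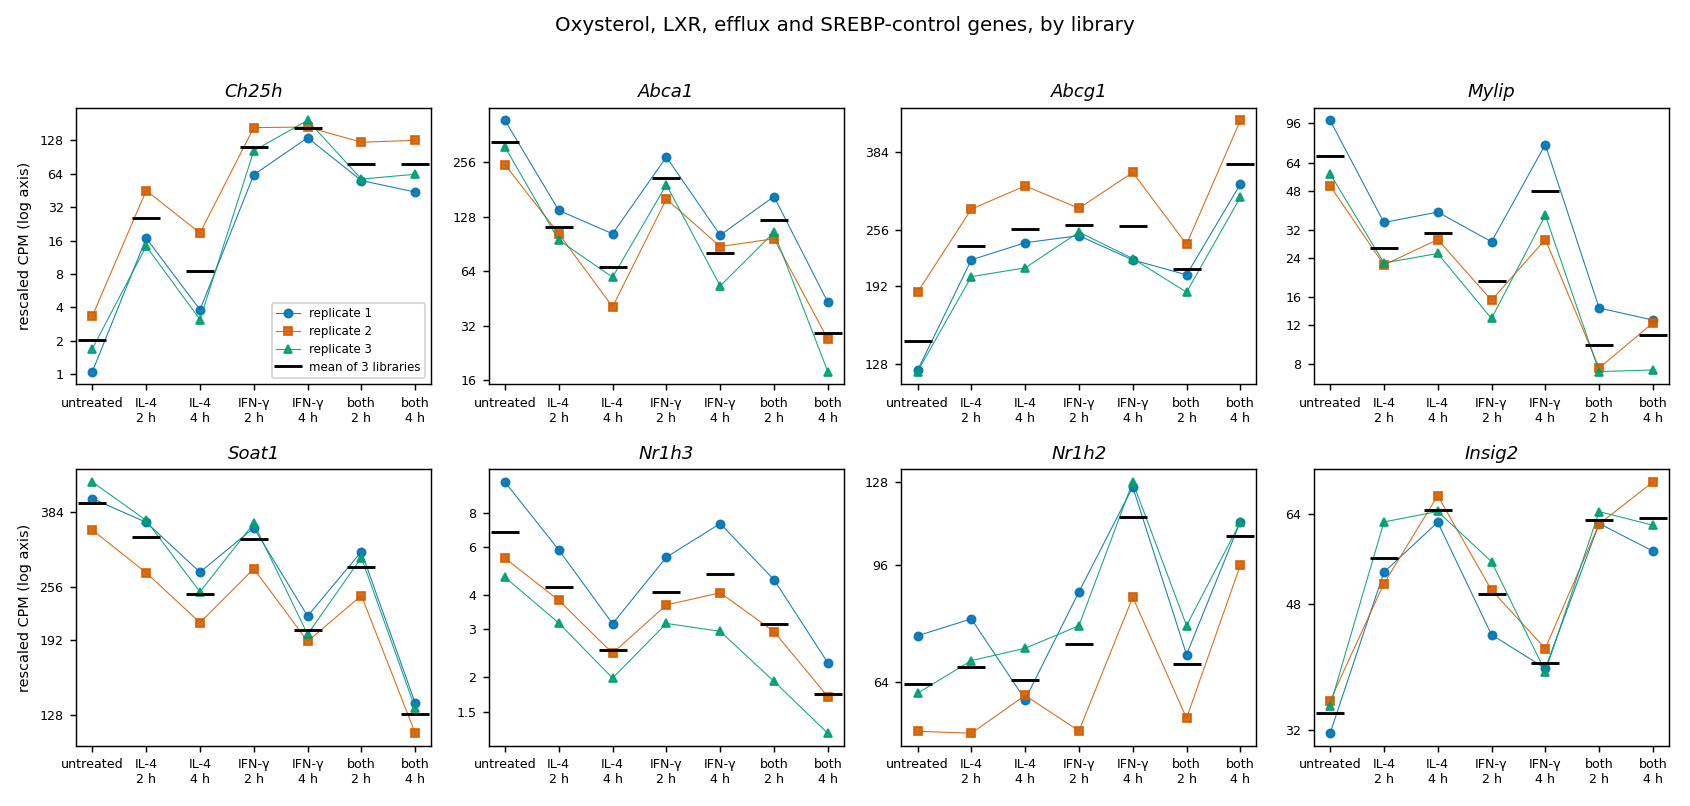
Rescaled CPM (log axis) of 8 genes in each of the 21 libraries, by group. Points are libraries, lines join libraries of 1 replicate number, and bars are means of 3 libraries: Ch25h climbs from 1.06 to 3.35 CPM in untreated cells to 135 to 194 CPM with IFN-γ at 4 h, Abca1 drops to 17.8 to 43.1 CPM with both cytokines at 4 h, and Abcg1 climbs to 304 to 453 CPM there.

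Of the other genes of transfer, storage and uptake control, Mylip and Soat1 fell and Stard4 was lower only with both cytokines at 4 h. Mylip, the ligase that marks the LDL receptor for degradation (chromosome 13, 45389742 to 45412022), held 99.1, 50.5 and 57.2 CPM in untreated cells. It held 34.6, 22.3 and 22.8 CPM with IL-4 at 2 h and 38.5, 29.01 and 25.1 CPM at 4 h, all below the lowest untreated library. IFN-γ gave 28.4, 15.5 and 12.9 CPM at 2 h and 77.3, 29.02 and 37.3 CPM at 4 h, a rebound that reached the untreated range in replicate 1 only. Both cytokines gave 14.3, 7.72 and 7.44 CPM at 2 h and 12.6, 12.3 and 7.56 CPM at 4 h. These were below every untreated and single-cytokine library, apart from combined replicate 1 at 2 h, which exceeded IFN-γ replicate 3 at 2 h. The log2 change was -1.83 ± 0.17, adjusted p = 1.5e-07, with IFN-γ at 2 h, -2.69 ± 0.17, adjusted p = 9.3e-10, with both at 2 h and -2.53 ± 0.17, adjusted p = 7.6e-10, with both at 4 h. With IL-4 the log2 change was -1.31 at 2 h and -1.09 at 4 h. The first of these calls was lost without replicate 3 of every group (adjusted p = 0.12), and the second without replicate 1 or 3 of every group, untreated replicate 1 or 3 or IL-4 4 h replicate 1 (adjusted p 0.092 to 0.31). The change with IFN-γ at 4 h was -0.58 ± 0.17 and not called, and Mylip was higher than at 2 h by 1.25 ± 0.17 (adjusted p = 1.7e-05), a call that ended without replicate 3 of every group (adjusted p = 0.079). At 4 h the combination was lower than IFN-γ (-1.95 ± 0.17, adjusted p = 1.3e-07) and lower than IL-4 (-1.44 ± 0.17, adjusted p = 1.6e-06), with no overlap in either case. The change at 4 h with both was also below the sum of the single changes (-0.86 ± 0.24, adjusted p = 0.022), but this call ended in 9 fits with libraries left out (adjusted p 0.05 to 0.32), among them those without untreated replicate 2, replicate 2 or 3 of IL-4, or replicate 1 or 3 of IFN-γ or of the combination. Without the block the IL-4 calls at 2 h (adjusted p = 0.11) and 4 h (0.21), the rebound (0.11) and the interaction (0.62) were lost. Without the filter the IL-4 call at 4 h (adjusted p = 0.072) and the interaction (0.07) were lost, the latter also with untreated replicate 1 as the lone control (0.12).

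Soat1, which esterifies cholesterol for storage, ranged over 348 to 451 CPM in untreated cells, 190.3 to 218 CPM with IFN-γ at 4 h and 116 to 136 CPM with both at 4 h, with no overlap between these 3 groups. It fell by 0.99 ± 0.07 (adjusted p = 1.4e-09) with IFN-γ at 4 h, a call that ended without replicate 3 of every group (adjusted p = 0.13), and by 1.64 ± 0.07 (adjusted p = 2.1e-12) with both at 4 h. With IL-4 at 4 h the range was 211 to 277 CPM, also below all untreated libraries, and the change of -0.72 ± 0.07 was called on the rescaled values only (adjusted p = 1.7e-07, deposited 0.28). The combination at 4 h was lower than IL-4 alone (-0.93 ± 0.07, adjusted p = 4.8e-09). Stard4, which carries sterol between membranes, stood at 20.6, 59.8 and 40.6 CPM in untreated cells. It held 21.1, 55.02 and 33.9 CPM with IL-4 at 2 h and 25.9, 50.7 and 35.4 CPM at 4 h, and 16.4, 43.5 and 25.95 CPM with IFN-γ at 2 h and 25.7, 34.6 and 37.7 CPM at 4 h. Both cytokines gave 16.6, 39.8 and 29.5 CPM at 2 h and 16.8, 24.6 and 23.7 CPM at 4 h, the latter within the untreated range in replicates 2 and 3 and below it in replicate 1. The change with both at 4 h was -0.76 ± 0.17, adjusted p = 0.00066, lower in 3 of 3 pairs, and the combination was lower than IL-4 at 4 h (-0.72 ± 0.17, adjusted p = 0.0013). The first call ended without replicate 3 of every group, untreated replicate 3 or combined 4 h replicate 2 (adjusted p 0.13 to 0.35), with untreated replicate 1 as the lone control (adjusted p = 0.11) and without the block (0.36), and the second ended without the block (0.23).

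The receptors that sense oxysterols moved apart with both cytokines at 4 h. Nr1h3, which encodes LXRα (chromosome 2, 91184061 to 91202834), had few reads, with 10.3, 5.45 and 4.64 CPM in untreated cells. It held 5.84, 3.83 and 3.16 CPM with IL-4 at 2 h and 3.14, 2.45 and 1.99 CPM at 4 h. IFN-γ gave 5.497, 3.68 and 3.15 CPM at 2 h and 7.29, 4.08 and 2.95 CPM at 4 h, both overlapping the untreated libraries. Both cytokines gave 4.55, 2.94 and 1.93 CPM at 2 h and 2.26, 1.70 and 1.25 CPM at 4 h, all below the lowest untreated library, as were the IL-4 libraries at 4 h. Replicate 1 was the highest in every group. The log2 change was -1.09 ± 0.11, adjusted p = 3.6e-07, with IL-4 at 4 h, -0.89 ± 0.11, adjusted p = 3.2e-06, with both at 2 h and -1.46 ± 0.11, adjusted p = 3.5e-09, with both at 4 h. The first ended without replicate 1 or 3 of every group (adjusted p 0.057 to 0.13), and the second without replicate 1 or 3 of every group or untreated replicate 1 (adjusted p 0.073 to 0.22). The combination at 4 h was lower than IFN-γ alone (-1.02 ± 0.11, adjusted p = 1.4e-06). Without the block the change with both at 4 h was called, and those with IL-4 at 4 h (adjusted p = 0.096), with both at 2 h (0.19) and against IFN-γ (0.14) were not. Nr1h2, which encodes LXRβ, ranged over 54.1 to 75.2 CPM in untreated cells and rose with IFN-γ at 4 h (85.9 to 128 CPM, log2 change 0.81 ± 0.11, adjusted p = 4.8e-06) and with both at 4 h (95.9 to 111 CPM, 0.74 ± 0.11, adjusted p = 1.1e-05). Neither group overlapped the untreated libraries, and no change of Nr1h2 was called at 2 h or with IL-4.

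Among the 5 genes of SREBP control, Insig2 was the 1 gene that changed against untreated cells. Insig2, which encodes an endoplasmic reticulum anchor of the SCAP and SREBP complex (chromosome 1, 121304353 to 121332589), stood at 31.7, 35.2 and 34.6 CPM in untreated cells. With IL-4 it held 53.1, 51.3 and 62.5 CPM at 2 h and 62.4, 67.99 and 64.6 CPM at 4 h. IFN-γ gave 43.5, 50.2 and 55.002 CPM at 2 h and 39.02, 41.6 and 38.6 CPM at 4 h, and both cytokines 62.2, 62.1 and 64.6 CPM at 2 h and 56.9, 71.03 and 61.8 CPM at 4 h. All treated groups lay above the untreated libraries, with IFN-γ at 4 h the closest to them. The log2 changes were 0.70 ± 0.08, adjusted p = 4.2e-06, with IL-4 at 2 h, 0.92 ± 0.08, adjusted p = 6.4e-08, at 4 h and 0.53 ± 0.08, adjusted p = 4.1e-05, with IFN-γ at 2 h. They were 0.88 ± 0.08, adjusted p = 9e-08, with both at 2 h and 0.88 ± 0.08, adjusted p = 4.2e-08, at 4 h, and the change with IFN-γ at 4 h (0.23 ± 0.08, adjusted p = 0.02) was not called on the deposited values (0.16). Each of the 5 calls held without the block and under each left-out library. At 4 h Insig2 was higher with IL-4 than with IFN-γ by 0.70 ± 0.08, adjusted p = 7.7e-07.

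Insig1, the INSIG gene that SREBP2 itself turns on, stood at 145, 294 and 249 CPM in untreated cells. IL-4 gave 99.9, 222 and 186 CPM at 2 h and 161, 255 and 243 CPM at 4 h. IFN-γ gave 169, 295 and 251 CPM at 2 h and 232, 198 and 268 CPM at 4 h, and both cytokines 157, 236 and 196 CPM at 2 h and 170.0, 185 and 193 CPM at 4 h. Every treated group overlapped the untreated libraries, and the log2 changes of -0.45 to 0.08 were not called. Srebf1, which encodes SREBP1, the factor that mainly serves fatty acid synthesis, held 69.3, 126 and 99.5 CPM in untreated cells. It held 82.0001, 131 and 100.2 CPM with IL-4 at 2 h, 71.6, 129.7 and 103 CPM at 4 h, 66.8, 105 and 82.1 CPM with IFN-γ at 2 h and 63.9, 117 and 86.7 CPM at 4 h. Both cytokines gave 63.8, 102 and 83.8 CPM at 2 h and 70.5, 119.6 and 89.2 CPM at 4 h, so all groups overlapped. Its log2 changes against untreated cells ran from -0.22 to 0.10, and none was called. Srebf2, which encodes SREBP2, and Scap, its escort, had log2 changes of -0.22 to 0.29 and -0.08 to 0.10, with no call. With IFN-γ at 4 h the 0.29 of Srebf2 passed on the rescaled values (adjusted p = 0.0025) and not on the deposited ones (0.074). On the rescaled values alone 1 of the 5 genes of SREBP control was lower with IFN-γ at 2 h (all genes 17.9%). Under both cytokines at 2 h 2 of the 5 were lower on that scale (all genes 20.9%). Neither passed on both scalings. A change in RNA was the only measure here, and the cleavage of SREBP was not measured.

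Of the 18 synthesis enzymes, Pmvk and Ebp rose with IFN-γ and with both cytokines, at both times, and were not called with IL-4 alone. Pmvk, phosphomevalonate kinase of the mevalonate arm (chromosome 3, 89454541 to 89469013), stood at 17.6, 25.8 and 18.8 CPM in untreated cells. It held 13.5, 23.8 and 18.6 CPM with IL-4 at 2 h and 17.5, 21.5 and 20.7 CPM at 4 h. IFN-γ gave 75.2, 50.3 and 72.3 CPM at 2 h and 141, 82.8 and 129 CPM at 4 h, and both cytokines 46.8, 38.2 and 53.8 CPM at 2 h and 89.1, 64.996 and 81.3 CPM at 4 h. Every library with IFN-γ lay above every library without it, and replicate 2 was the lowest of the 3 in each of those groups and the highest in untreated cells. The log2 change was 1.62 ± 0.22, adjusted p = 1.4e-05, with IFN-γ at 2 h and 2.43 ± 0.22, adjusted p = 5.1e-08, at 4 h. With both it was 1.13 ± 0.22, adjusted p = 0.00045, at 2 h, a call that ended without replicate 3 of every group (adjusted p = 0.054), and 1.88 ± 0.22, adjusted p = 9.8e-07, at 4 h. At 4 h the combination stood -0.55 ± 0.22 from IFN-γ alone (adjusted p = 0.065), which was not called. Ebp, the sterol isomerase (chromosome X, 8185329 to 8193512), held 47.9, 54.5 and 56.5 CPM in untreated cells, 47.4, 53.2 and 58.4 CPM with IL-4 at 2 h and 49.6, 51.3 and 60.1 CPM at 4 h. With IFN-γ it held 80.1, 80.5 and 102 CPM at 2 h and 104, 89.4 and 120.1 CPM at 4 h. Both cytokines gave 75.7, 73.3 and 84.7 CPM at 2 h and 91.5, 85.8 and 101 CPM at 4 h. Here too all libraries with IFN-γ lay above all without it. The log2 changes were 0.71 ± 0.07, adjusted p = 4.7e-07, and 0.96 ± 0.07, adjusted p = 4.9e-09, with IFN-γ at 2 h and 4 h, and 0.55 ± 0.07 and 0.80 ± 0.07 with both. All 8 of these rises in Pmvk and Ebp were called without the block as well. From 2 h to 4 h Pmvk rose further by 0.81 ± 0.22 with IFN-γ, a call lost without replicate 1 or 3 of every group, IFN-γ 2 h replicate 2 or 3 or IFN-γ 4 h replicate 1 or 3 (adjusted p 0.057 to 0.37), and by 0.75 ± 0.22 with both, lost without replicate 1 or 3 of every group, combined 2 h replicate 1 or 2 or combined 4 h replicate 1 (adjusted p 0.061 to 0.2). Without the block neither of these 2 was called (adjusted p = 0.074 and 0.065), nor without the filter (0.059 and 0.053). Neither gene shares exon bases with another annotated gene.

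**Figure D3:**
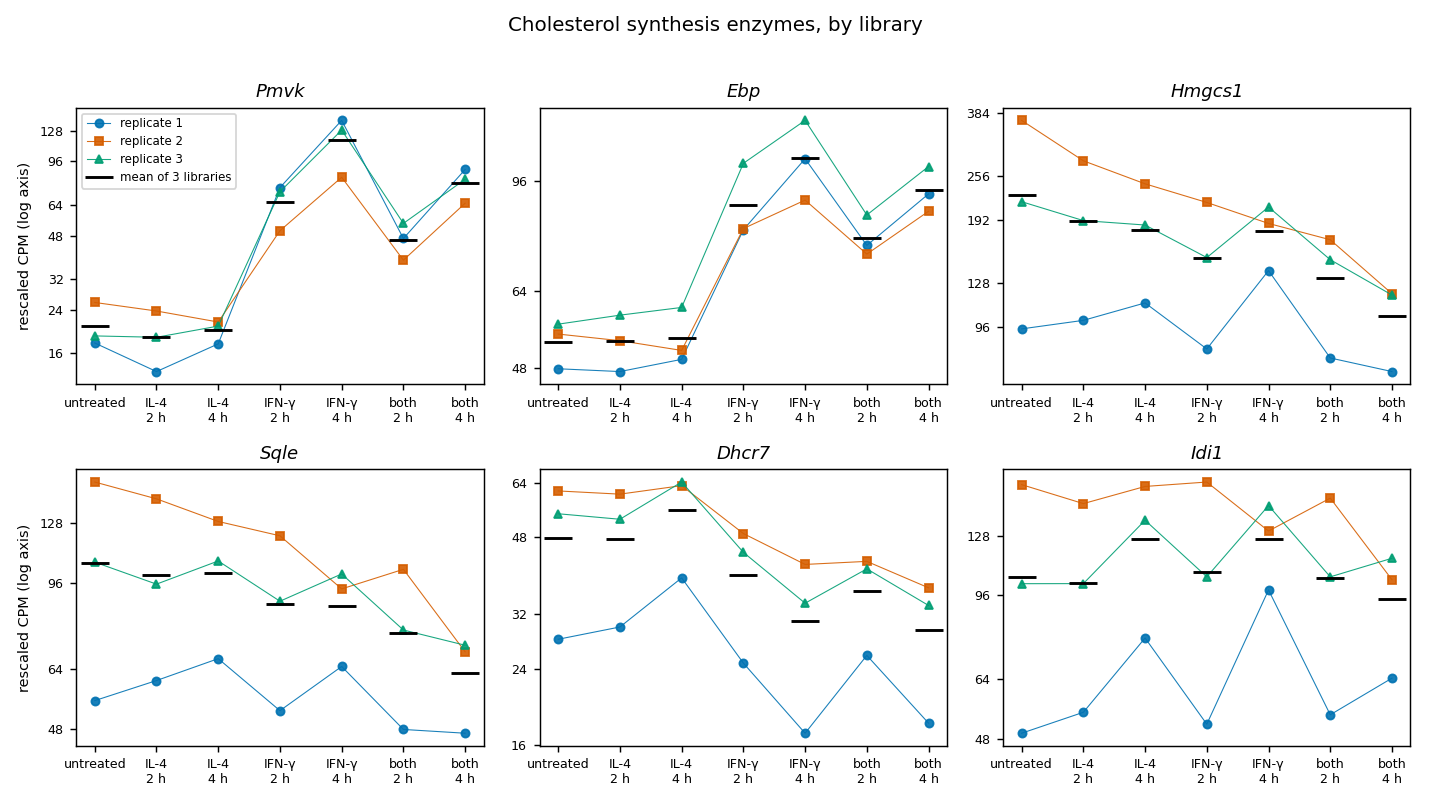
Rescaled CPM (log axis) of 6 synthesis enzymes in each of the 21 libraries, by group, with lines joining libraries of 1 replicate number and bars at the means of 3 libraries. Pmvk and Ebp separate the 4 groups with IFN-γ from the 3 without it, and Hmgcs1, Sqle, Dhcr7 and Idi1 show replicate 1 (circles) as the lowest library in every group.

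By calls that needed both scalings, the changes of the other 16 synthesis enzymes against untreated cells were as follows. IL-4 raised 2 at 4 h (all genes 23.9%), Fdps, which makes farnesyl pyrophosphate, by 0.24 ± 0.09 and Dhcr7, which makes the last step to cholesterol, by 0.24 ± 0.08. IFN-γ at 4 h raised Fdps (0.33 ± 0.09) besides Pmvk and Ebp and lowered Dhcr7 (-0.63 ± 0.08), where 24% and 13.8% of all genes were called higher and lower. Both cytokines at 4 h lowered 4 of the 18, where 14.2% of all genes were called lower. The 4 were Acat2 of acetoacetyl-CoA formation (-0.74 ± 0.17, adjusted p = 0.00093), Hmgcs1, the HMG-CoA synthase (-0.96 ± 0.18, adjusted p = 0.00018), Sqle, squalene epoxidase (-0.64 ± 0.14, adjusted p = 0.00057), and Dhcr7 (-0.67 ± 0.08, adjusted p = 2.3e-06). On the deposited values alone IL-4 at 4 h raised 16 of the 18 (all genes 48.1%), and on the rescaled values alone both cytokines at 4 h lowered 10 (all genes 33.4%). The median log2 change of the 18 was 0.12 with IL-4, -0.05 with IFN-γ and -0.34 with both at 4 h, beside -0.01, 0.00 and 0.00 over all genes. Hmgcs1 stood at 94.9, 367 and 217 CPM in untreated cells, at 100.3, 282 and 192 with IL-4 at 2 h and at 112, 243 and 186 at 4 h. It held 83.3, 215 and 151 CPM with IFN-γ at 2 h, 139, 188 and 209 at 4 h, 78.6, 169 and 149 with both at 2 h and 71.97, 119 and 118 at 4 h. The untreated libraries spanned a wide range and overlapped every treated group, and each pair of libraries was lower with both at 4 h. Sqle stood at 55.04, 155 and 106 CPM in untreated cells, at 60.5, 143 and 95.6 with IL-4 at 2 h and 67.2, 129 and 107 at 4 h. It held 52.5, 120.3 and 88.2 CPM with IFN-γ at 2 h, 64.7, 93.5 and 100.4 at 4 h, 48.01, 103 and 76.9 with both at 2 h and 47.2, 69.4 and 71.6 at 4 h, again with overlap and a lower value in 3 of 3 pairs. Dhcr7 held 28.01, 61.3 and 54.3 CPM in untreated cells, 29.9, 60.2 and 52.8 with IL-4 at 2 h and 38.7, 62.999 and 64.2 at 4 h. It held 24.7, 48.9 and 44.3 CPM with IFN-γ at 2 h, 17.1, 41.6 and 33.9 at 4 h, 25.7, 42.2 and 40.6 with both at 2 h and 17.99, 36.7 and 33.5 at 4 h, and replicate 1 was the lowest library of each group. Idi1, the isomerase of the 5-carbon isoprene units, held 49.3, 164 and 102 CPM in untreated cells, 54.5, 149.6 and 102 with IL-4 at 2 h and 78.1, 163 and 138 at 4 h. It held 51.5, 166 and 105 CPM with IFN-γ at 2 h, 98.5, 131 and 148 at 4 h, 53.9, 154 and 105 with both at 2 h and 64.3, 104 and 115 at 4 h, with log2 changes of -0.04 to 0.40 against untreated cells and no call.

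These small calls rested on the block and on single libraries. Over all comparisons the 16 enzymes other than Pmvk and Ebp gave 31 calls, and all 31 were lost without the block (adjusted p 0.088 to 0.97). The fall of Hmgcs1 with both at 4 h ended without replicate 3 of every group (adjusted p = 0.093) and with untreated replicate 1, the library with the least Rn45s in its group, as the lone control (adjusted p = 0.051). That of Sqle ended without replicate 1 or 3 of every group, untreated replicate 1 or 3 or combined 4 h replicate 2 or 3 (adjusted p 0.075 to 0.43), and with the lone control (adjusted p = 0.11). For Acat2 it ended without replicate 1 or 3 of every group, untreated replicate 3 or combined 4 h replicate 2 (adjusted p 0.07 to 0.33), and with the lone control (adjusted p = 0.14). For Dhcr7 it ended without replicate 1 or 3 of every group, untreated replicate 1 or 3 or combined 4 h replicate 1, 2 or 3 (adjusted p 0.069 to 0.47), and its fall with IFN-γ at 4 h without replicate 1 or 3 of every group, untreated replicate 1 or 3 or IFN-γ 4 h replicate 1 or 3 (adjusted p 0.098 to 0.47). The rise of Fdps with IL-4 at 4 h ended without replicate 1 or 3 of every group, untreated replicate 1 or 3 or IL-4 4 h replicate 1, 2 or 3 (adjusted p 0.051 to 0.39), that with IFN-γ without replicate 1 or 3 of every group or IFN-γ 4 h replicate 1, 2 or 3 (adjusted p 0.075 to 0.31), and the rise of Dhcr7 with IL-4 without replicate 1 or 3 of every group, untreated replicate 1 or IL-4 4 h replicate 1 or 3 (adjusted p 0.075 to 0.24). The calls of Fdps with IL-4 (adjusted p = 0.053) and of Dhcr7 with both (0.056) were lost without the filter, that of Sqle with a filter at 5 CPM (0.05), and that of Fdps with IL-4 in DESeq2 (0.057). With the lone control the calls of Fdps with IFN-γ (adjusted p = 0.097) and Dhcr7 with IL-4 (0.061) were lost as well. Fdps also shares 1124 exon bases with the gene model Gm43738 on its own strand, so reads of the pair could be split.

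In the median of the 18 synthesis enzymes, replicate 1 was lower than replicates 2 and 3 in each of the 7 groups. In untreated cells all 18 of 18 were higher in replicate 2 than in replicate 1, by a median log2 difference of 1.47, and all 18 were higher in replicate 3 than in replicate 1 (0.93). The difference between replicates 2 and 1 had a median of 0.95 with IL-4 at 4 h (18 of 18 higher), 0.49 with IFN-γ at 4 h (15 of 18) and 0.68 with both at 4 h (16 of 18). Replicates 2 and 3 lay closer together, with a median difference (2 minus 3) of 0.54 in untreated cells, 0.23 with IL-4, -0.09 with IFN-γ and 0.02 with both at 4 h. The 3 pairs of libraries did not move together with IFN-γ at 4 h. In replicate 1, 14 of 18 enzymes were higher than untreated (median log2 difference 0.39), in replicate 2, 15 of 18 were lower (-0.56), and in replicate 3, 8 were higher and 10 lower (-0.03). With IL-4 at 4 h 16 were higher in replicate 1, 4 in replicate 2 and 16 in replicate 3. Summed macrophage markers also differed by replicate number (9238 to 10994 CPM in replicate 1, 6264 to 7349.6 in replicate 2, 9019 to 10412 in replicate 3). The 4 T cell markers did so too (16.3 to 26.8 CPM in replicate 1, 2.53 to 4.79 in replicate 2, 11.7 to 21.02 in replicate 3), as did the 3 measured neutrophil markers (42.7 to 72.9 CPM in replicate 3, 94.96 to 222 in the other two). The part of these markers in the pattern was not tested.

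**Figure D4:**
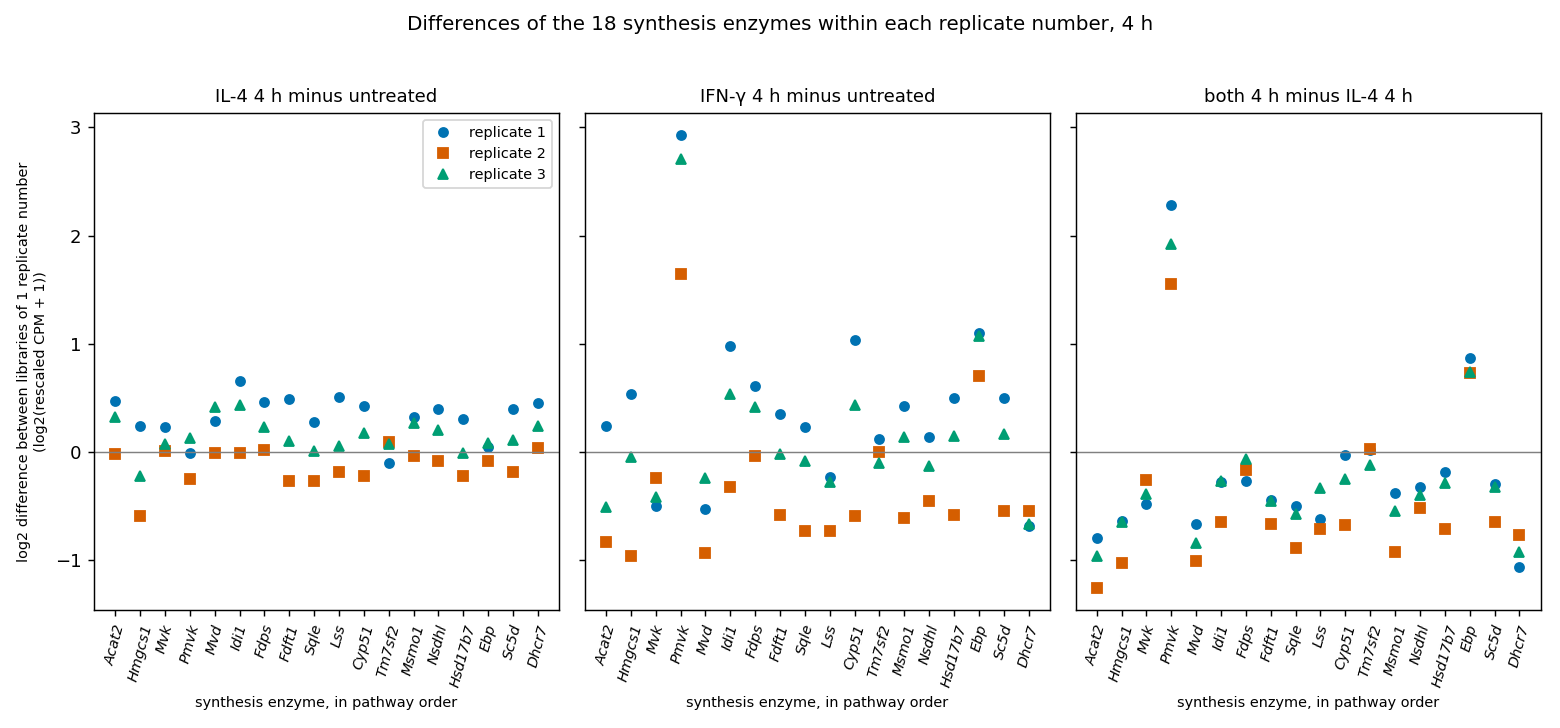
Log2 differences (log2(rescaled CPM + 1)) of the 18 synthesis enzymes between libraries of 1 replicate number at 4 h, 1 panel per comparison and 1 symbol per replicate number, with 0 as the line of no difference. With IFN-γ the replicate 1 points lie mostly above 0 and the replicate 2 points mostly below, and between both cytokines and IL-4 15, 15 and 16 of 18 points lie below 0 in replicates 1, 2 and 3.

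The 3 replicate numbers moved alike when both cytokines were set against either cytokine alone at 4 h, comparisons that use no untreated library. Against IL-4 alone 16 of the 31 genes were lower and 3 higher with both (all genes 29.2% and 11.6%). On rescaled values alone 16 were lower and 5 higher (all genes 30.1% and 25.9%). In the deposited values the median gene differed by -0.27 in this comparison. Of the 18 synthesis enzymes 11 were lower and 2 higher by calls on both scalings, the latter Pmvk and Ebp. The log2 changes of the 11 ran from -1.001 (Acat2) to -0.37 (Mvk), with Dhcr7 at -0.92 ± 0.08, adjusted p = 9.2e-08, Mvd, the mevalonate pyrophosphate decarboxylase, at -0.84 ± 0.12, adjusted p = 1.7e-05, Hmgcs1 at -0.77 ± 0.18, adjusted p = 0.0017, and Sqle at -0.65 ± 0.14, adjusted p = 0.0007. The median over the 18 was -0.42, beside -0.04 over all genes. Within replicates 1, 2 and 3 it was -0.35, -0.67 and -0.36, with 15, 15 and 16 of 18 below 0. For Dhcr7 and Mvd all combined libraries lay below all IL-4 libraries, and for the other 9 the groups overlapped. The share of all genes without overlap was not counted, so this describes single genes only. The calls of Acat2, Hmgcs1, Mvd, Sqle, Lss and Dhcr7 held under each left-out library. Those of Fdft1, Msmo1 and Nsdhl ended without replicate 3 of every group (adjusted p = 0.076, 0.053 and 0.17), that of Mvk without replicate 1 or 3 of every group or combined 4 h replicate 1 (adjusted p 0.053 to 0.23) and that of Sc5d without replicate 3 of every group, IL-4 4 h replicate 1 or combined 4 h replicate 2 (adjusted p 0.081 to 0.16). The 11 were not called without the block, and Pmvk and Ebp were, where 15% and 8.59% of all genes were called lower and higher. The call of Ebp ended without replicate 1 or 3 of every group, IL-4 4 h replicate 1 or 3 or combined 4 h replicate 1 or 2 (adjusted p 0.051 to 0.24). At 2 h the same comparison lowered 3 genes and raised 2 (all genes 8.44% and 8.08%), and on rescaled values alone it lowered 11 and raised 3 (all genes 17% and 16.3%). The falls of Hmgcs1 and Mvd at 2 h ended in 8 and 7 fits with libraries left out (adjusted p 0.061 to 0.29 and 0.063 to 0.35), among them those without each IL-4 replicate. Without the block this comparison at 2 h lowered 1 and raised 1 (all genes 3.3% and 4.93%).

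IL-4 and IFN-γ set against each other at 4 h left 9 members higher and 3 lower with IL-4 (all genes 31.9% and 14.2%). The 9 were Acat2, Mvk, Mvd, Lss, Nsdhl, Dhcr7, Srebf1, Insig2 and Soat1, with log2 differences from 0.18 (Srebf1) to 0.88 (Dhcr7), and Pmvk (-2.47), Ebp (-0.94) and Ch25h (-4.50) were lower. The call of Srebf1 ended without replicate 1 or 3 of every group, IL-4 4 h replicate 2 or 3 or IFN-γ 4 h replicate 1 (adjusted p 0.053 to 0.23), that of Soat1 without replicate 1 or 3 of every group (adjusted p 0.063 to 0.15), that of Nsdhl without replicate 3 of every group or IFN-γ 4 h replicate 2 (adjusted p 0.052 to 0.13), and those of Acat2, Mvk and Ebp without replicate 3 of every group (adjusted p = 0.097, 0.062 and 0.17). Without the block 1 was higher (Insig2) and 3 lower (all genes 20.3% and 11.1%), and on rescaled values alone 9 were higher and 7 lower (all genes 31.9% and 31.4%). At 2 h 1 member was higher with IL-4 (Mylip) and 4 lower (Pmvk, Ebp, Ch25h and Abca1), where 11.9% and 9.4% of all genes were. On rescaled values alone these were 4 and 5 (all genes 19.4% and 19.7%). The calls at 2 h ended for Ebp without replicate 1 or 3 of every group, IL-4 2 h replicate 1 or 3 or IFN-γ 2 h replicate 2 or 3 (adjusted p 0.05 to 0.4), for Abca1 without replicate 3 of every group, IL-4 2 h replicate 1 or IFN-γ 2 h replicate 3 (adjusted p 0.054 to 0.19) and for Mylip without replicate 3 of every group, IL-4 2 h replicate 2 or 3 or IFN-γ 2 h replicate 1 or 3 (adjusted p 0.053 to 0.6). Adding IL-4 to IFN-γ lowered 2 genes at 2 h (Abca1 and Mylip, all genes 1.45%), and on rescaled values alone lowered 4 and raised 1 (all genes 4.5% and 5.87%). The call of Abca1 ended without replicate 1 or 3 of every group, IFN-γ 2 h replicate 1, 2 or 3 or combined 2 h replicate 1, 2 or 3 (adjusted p 0.062 to 0.53), and that of Mylip without replicate 1 or 3 of every group, IFN-γ 2 h replicate 1 or 2 or combined 2 h replicate 3 (adjusted p 0.051 to 0.2). At 4 h it raised 2 (Insig2 and Abcg1) and lowered 6 (all genes 7.35% and 5.75%): Hmgcs1, Ch25h, Nr1h3, Abca1, Soat1 and Mylip. Hmgcs1 fell there by 0.80 ± 0.18 (adjusted p = 0.0023), with all combined libraries below all IFN-γ libraries, a call that ended without replicate 1 or 3 of every group, IFN-γ 4 h replicate 1 or combined 4 h replicate 2 (adjusted p 0.053 to 0.3) and without the block (0.62). The call of Soat1 ended without replicate 1 or 3 of every group, IFN-γ 4 h replicate 2 or 3 or combined 4 h replicate 1, 2 or 3 (adjusted p 0.051 to 0.51), and that of Insig2 without replicate 3 of every group (adjusted p = 0.26). Without the block neither Abca1 nor Mylip was lower at 2 h (all genes 0.22%), and 1 member was higher and 2 lower at 4 h (3.9% and 2.21%). Over the 18 synthesis enzymes the median log2 change on adding IL-4 to IFN-γ at 4 h was -0.34, beside -0.03 over all genes. Within replicates 1, 2 and 3 it was -0.39, -0.30 and -0.29, with 14, 17 and 15 of 18 below 0. By calls on both scalings Hmgcs1 alone of the 18 was lower.

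The remaining enzymes were called only in these comparisons between treated groups, or not at all. In the mevalonate arm, Mvk, mevalonate kinase, ranged over 9.23 to 23.8 CPM in untreated cells, 11.03 to 23.96 CPM with IL-4 at 4 h and 7.61 to 19.9 CPM with both at 4 h. Fdft1, squalene synthase, ranged over 18.6 to 78.03, 26.6 to 64.8 and 19.3 to 40.5 CPM in the same groups, and Mvd over 28.7 to 64.4, 35.2 to 63.9 and 21.8 to 33.96 CPM. In the sterol arm, Lss, which closes the rings to lanosterol, ranged over 29.5 to 106, 42.4 to 93.6 and 27.2 to 56.8 CPM. Msmo1 and Nsdhl, which remove methyl groups from the ring, had log2 changes against untreated cells of -0.43 to 0.19 and -0.23 to 0.18. Sc5d, a sterol desaturase, had -0.31 to 0.11. Cyp51, the lanosterol demethylase, Tm7sf2, a sterol reductase, and Hsd17b7, which reduces the 3-keto group, had -0.19 to 0.30, -0.12 to 0.02 and -0.37 to 0.03, and like Idi1, Srebf2, Scap and Insig1 these 3 were called in no comparison by limma. Without stated strandedness, reads of Fdft1 and Cyp51 cannot be told apart from those of Ctsb and Akap9 where their exons overlap on opposite strands, for 774 and 166 bases, nor reads of Tm7sf2 from Vps51 on the same strand (532 bases). Hmgcs1, Idi1, Lss and Scap overlap antisense or unclassified transcripts on the other strand.

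Some responses were still moving between 2 h and 4 h. With IL-4, 2 members were lower at 4 h than at 2 h, Ch25h and Abca1, where 2.07% of all genes were. With IFN-γ, 3 were lower (Abca1, Soat1 and Dhcr7, all genes 15.1%) and 2 higher (Mylip and Pmvk, all genes 7.14%). With both, 4 were lower (Abca1, Soat1, Nr1h3 and Acat2, all genes 13.6%) and 3 higher (Abcg1, Pmvk and Nr1h2, all genes 7.42%). Abca1 was thus lower at 4 h than at 2 h under each treatment, with log2 changes of -0.81 ± 0.19, -1.38 ± 0.19 and -2.07 ± 0.19 (adjusted p = 0.0057, 1.7e-05 and 1.8e-07). Without the block 2 of these calls held with IFN-γ and 2 with both, those of Abca1 and Soat1 (4.75% and 5.13% of all genes were called lower). The IL-4 calls were then lost (all genes 0.22% lower). On rescaled values alone 4 were lower and 2 higher with IL-4 (all genes 10.7% and 9.1%), and 4 lower and 6 higher with IFN-γ (22.1% and 23.2%). The call of Abca1 with IL-4 ended without replicate 3 of every group, IL-4 2 h replicate 2 or 3 or IL-4 4 h replicate 2 or 3 (adjusted p 0.056 to 0.35). With IFN-γ that of Soat1 ended without replicate 3 of every group (adjusted p = 0.1), and that of Dhcr7 in 7 fits with libraries left out (adjusted p 0.061 to 0.4), among them that without replicate 3 of every group. With both the call of Nr1h3 ended without replicate 1 or 3 of every group, combined 2 h replicate 2 or combined 4 h replicate 1 (adjusted p 0.071 to 0.13), and those of Acat2 (0.053 to 0.29) and Nr1h2 (0.064 to 0.34) without any 1 of the libraries compared.

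Neighbouring genes of lipid metabolism, listed by pathway, moved as follows at 4 h, where 23.9% and 5.04% of all genes were called higher and lower with IL-4, 24% and 13.8% with IFN-γ, and 30.7% and 14.2% with both. On the rescaled values alone those shares were 23.9% and 23.6%, 32.5% and 30.8%, and 33.4% and 33.4%. Of 11 genes of fatty acid synthesis, the branch served by SREBP1, IFN-γ lowered 7, both cytokines lowered 6, and IL-4 raised 1. On the rescaled values alone IFN-γ lowered 11, both cytokines 9 and IL-4 4, beside 1 raised. Their median log2 change was -0.69 with IFN-γ, -0.75 with both and -0.31 with IL-4, the last opposite in sign to the single call. Without the block IFN-γ lowered 1 and both cytokines 1 of them (all genes 7.62% and 8.46%), and the IL-4 call was lost. With both, Acsl3, an acyl-CoA synthetase, fell by 1.84 ± 0.14, the desaturase Fads1 by 1.67 ± 0.13 and the desaturase Scd2 by 1.18 ± 0.19, the last call ending without replicate 3 of every group (adjusted p = 0.11). Without the block that of Fads1 held, and those of Acsl3 (adjusted p = 0.051) and Scd2 (0.65) did not. Gpr183, the receptor for the oxysterol that is made from 25-hydroxycholesterol, fell by 3.01 ± 0.22 with IFN-γ (adjusted p = 3.2e-09). With IL-4 it rose by 0.82 ± 0.22 (adjusted p = 0.0051), a call that ended without replicate 3 of every group (adjusted p = 0.078), without the block (0.11) and with the lone control (0.087). Hsd3b7, which degrades that oxysterol, rose by 0.92 ± 0.08 with IFN-γ (adjusted p = 4.1e-08), and Cyp27a1 was not called at 4 h. Of 6 other LXR targets and partners, IFN-γ lowered 3: Rxra, the partner of LXR (-1.57 ± 0.11), the small GTPase Arl4c (-1.52 ± 0.24) and the lipid droplet coat gene Plin2 (-1.45 ± 0.09). IL-4 lowered 1 and both cytokines 2 of the 6. On the rescaled values alone IFN-γ lowered 4 of the 6 and raised 1, IL-4 lowered 3 and both cytokines 4. Of 5 tested genes of lipid uptake both cytokines lowered 2 and IL-4 2. On the rescaled values alone both cytokines lowered 4, IL-4 4 and IFN-γ 5, and the IFN-γ changes did not pass on both scalings. Those lowered by IL-4 were Lrp1 (-1.05 ± 0.15) and Msr1 (-1.03 ± 0.13), and neither was called without the block (adjusted p = 0.4 and 0.53) or without the filter (0.13 and 0.08). These calls also ended without replicate 1 or 3 of every group, untreated replicate 1 or 3 or IL-4 4 h replicate 1, 2 or 3 (adjusted p 0.061 to 0.46) for Lrp1 and without replicate 1 or 3 of every group, untreated replicate 1 or 3 or IL-4 4 h replicate 1 (adjusted p 0.12 to 0.36) for Msr1. Of 7 genes of SREBP cleavage and sterol trafficking, IFN-γ raised 1, IL-4 raised 1, and both cytokines raised 2 and lowered 1. On the rescaled values alone IFN-γ raised 2 and lowered 2, IL-4 raised 1 and lowered 2, and both cytokines raised 2 and lowered 4. Stard3 rose with IFN-γ (0.61 ± 0.11, adjusted p = 0.0001), a call lost with the lone control (adjusted p = 0.095). Lipa, the lysosomal lipase, fell with both (-0.80 ± 0.07, adjusted p = 2.9e-08), and Osbp rose with IL-4 (0.41 ± 0.09, adjusted p = 0.00097). The call of Lipa ended without replicate 1 or 3 of every group, untreated replicate 1 or 3 or combined 4 h replicate 1 or 3 (adjusted p 0.079 to 0.42), without the block (0.075) or without the filter (0.063), and that of Osbp without replicate 1 of every group (adjusted p = 0.06) and without the block (0.11).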

How the data were processed

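Poly(A) RNA-seq values came from 1 deposited table of CPM, on a linear scale. The authors' values are read counts per gene divided by the library total, as the recovery of whole reads below shows, and the submitters' processing notes name TopHat2 (2.1.0), HTSeq, edgeR and mm10/GRCm38, and strandedness is not given in the sources used here. The 24 other samples were not analysed here. Of the deposited CPM, 100.0% were whole multiples of 1 read within 0.01 read, which gave library totals. CPM were rescaled by median-ratio factors, because rRNA reads shift untreated libraries. The 11380 genes reaching 1 CPM in 3 or more libraries were fitted with limma (3.58.1, R 4.3.3) on log2(CPM + 1), with 7 group means, the replicate number as a block and 12 residual degrees of freedom, on rescaled and on deposited CPM. p values were adjusted by Benjamini-Hochberg over all genes per comparison. The replicate numbers come from the titles; deviations from group means correlated at 0.54 to 0.95 over the 63 pairs of libraries with the same number and at -0.86 to 0.37 over the 126 others. The scripts were tested on simulated data. Alternatives were a single scaling, no block, a pseudocount of 0.1 CPM, no filter or 5 CPM, edgeR (4.0.16) and DESeq2 (1.42.0) on recovered reads, and leaving out libraries. The members and lists were chosen with earlier results of these data known. Every-library values were given for 15 members. Pmvk, Ebp, Dhcr7, Insig2 and Mylip were taken for having the largest called changes of their role against untreated cells, and the rest were picked by name. Neighbours were named as the called genes with the largest change at 4 h against untreated cells, at most 3 per list. Promoters and gene positions came from RefSeq (GRCm38.p6) and GENCODE vM21, and the sequence of Stard4 was not used here. 1 of the motifs searched for is not reported here.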

Additional observations from a re-analysis of the deposited data

Results flagged for a closer look

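The changes below differed between 2 h and 4 h under 1 treatment, or differed from the sum of the single-cytokine changes, by limma's test of that difference (log2 scale, adjusted p under 0.05 on both scalings). Between 2 h and 4 h of IL-4, Ch25h changed by -1.67 ± 0.29 and Abca1 by -0.81 ± 0.19 (2.07% of all genes fell). The second was lost without replicate 3 of every group, IL-4 2 h replicate 2 or 3 or IL-4 4 h replicate 2 or 3 (adjusted p 0.056 to 0.35), and both were lost without the block (adjusted p = 0.41 and 0.79).

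Between 2 h and 4 h of IFN-γ, Abca1 changed by -1.38, Soat1 by -0.71 and Dhcr7 by -0.37 on the log2 scale, and Mylip rose by 1.25 and Pmvk by 0.81 (all genes 15.1% lower and 7.14% higher). Without the block the calls of Abca1 and Soat1 held, and those of Dhcr7 (adjusted p = 0.6), Mylip (0.11) and Pmvk (0.074) did not. That of Soat1 ended without replicate 3 of every group (adjusted p = 0.1), and that of Dhcr7 without replicate 1 or 3 of every group, IFN-γ 2 h replicate 1, 2 or 3 or IFN-γ 4 h replicate 1 or 3 (adjusted p 0.061 to 0.4).

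Between 2 h and 4 h of both cytokines, Abca1 changed by -2.07, Soat1 by -1.14, Nr1h3 by -0.56 and Acat2 by -0.47. Abcg1 rose by 0.77, Pmvk by 0.75 and Nr1h2 by 0.64 (all genes 13.6% lower and 7.42% higher). The calls of Abca1 and Soat1 held without the block, and those of Nr1h3 (adjusted p = 0.29), Acat2 (0.65), Abcg1 (0.14), Pmvk (0.065) and Nr1h2 (0.22) did not. That of Acat2 ended when replicate 1, 2 or 3 of every group or any 1 of the 6 combined libraries was left out (adjusted p 0.053 to 0.29), that of Nr1h2 without replicate 1 or 3 of every group, combined 2 h replicate 1, 2 or 3 or combined 4 h replicate 1, 2 or 3 (adjusted p 0.064 to 0.34), and that of Nr1h3 without replicate 1 or 3 of every group, combined 2 h replicate 2 or combined 4 h replicate 1 (adjusted p 0.071 to 0.13).

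The combined change was below the sum of the single ones for Ch25h (-3.49 ± 0.41) and Abcg1 (-1.05 ± 0.12) at 2 h. At 4 h it was so for Ch25h (-2.53 ± 0.41), Mylip (-0.86 ± 0.24) and Fdps (-0.50 ± 0.13), the last without a call when replicate 1 or 3 of every group, IFN-γ 4 h replicate 3 or combined 4 h replicate 1 (adjusted p 0.058 to 0.46) was left out and without the block (adjusted p = 0.97).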

How the results depend on the processing

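The number of the 31 members called was 5 for IL-4 2 h, 8 for IL-4 4 h, 6 for IFN-γ 2 h, 9 for IFN-γ 4 h, 8 for both 2 h, 15 for both 4 h, 2 for both against IFN-γ 2 h, 8 for both against IFN-γ 4 h, 5 for both against IL-4 2 h, 19 for both against IL-4 4 h, 2 for IL-4 4 h against 2 h, 5 for IFN-γ 4 h against 2 h, 7 for both 4 h against 2 h, 5 for IL-4 against IFN-γ 2 h, 12 for IL-4 against IFN-γ 4 h, 2 for the interaction 2 h and 3 for the interaction 4 h, where a treatment named alone is set against untreated cells. The shares of all genes called moved with the setting as well. Those shares are not given here for the fits without the filter, with the lone control or with libraries left out, so these member numbers have no such background. For IL-4 4 h they were 23.9% higher and 5.04% lower on both scalings together. On deposited CPM alone they were 48.1% and 5.07%, on rescaled CPM alone 23.9% and 23.6%, and without the block 12% and 2.52%. Member numbers over 1.5 times away from those above were as follows. On deposited CPM alone the number was 13 for IL-4 2 h, 26 for IL-4 4 h and 13 for the interaction 4 h. On rescaled CPM alone the number was 15 for IFN-γ 2 h, 16 for IFN-γ 4 h, 17 for both 2 h, 5 for both against IFN-γ 2 h, 14 for both against IL-4 2 h, 6 for IL-4 4 h against 2 h, 10 for IFN-γ 4 h against 2 h, 9 for IL-4 against IFN-γ 2 h and 5 for the interaction 4 h. Without the replicate block the number was 2 for IL-4 2 h, 3 for IL-4 4 h, 5 for both 2 h, 0 for both against IFN-γ 2 h, 3 for both against IFN-γ 4 h, 2 for both against IL-4 2 h, 6 for both against IL-4 4 h, 0 for IL-4 4 h against 2 h, 2 for IFN-γ 4 h against 2 h, 2 for both 4 h against 2 h, 3 for IL-4 against IFN-γ 2 h, 4 for IL-4 against IFN-γ 4 h, 0 for the interaction 2 h and 0 for the interaction 4 h. Without the filter the number was 0 for both against IFN-γ 2 h, 5 for both against IFN-γ 4 h, 1 for IL-4 4 h against 2 h, 3 for both 4 h against 2 h and 3 for IL-4 against IFN-γ 2 h. With edgeR the number was 15 for IFN-γ 2 h, 18 for IFN-γ 4 h, 17 for both 2 h, 5 for both against IFN-γ 2 h, 11 for both against IL-4 2 h, 6 for IL-4 4 h against 2 h, 11 for IFN-γ 4 h against 2 h and 9 for IL-4 against IFN-γ 2 h. Of all genes edgeR called 20.7% higher and 17.6% lower for IFN-γ 2 h, and 30.7% and 32.9% for IFN-γ 4 h. For both 2 h the shares were 23.4% and 20.5%, and for both against IL-4 2 h 17.8% and 15.6%. For both against IFN-γ 2 h they were 6.03% and 4.68%, and for IL-4 against IFN-γ 2 h 18% and 21.2%. Between 2 h and 4 h they were 9.89% and 10.9% for IL-4 and 20.8% and 25.3% for IFN-γ. With DESeq2 the number was 8 for IL-4 2 h, 15 for IFN-γ 2 h, 18 for IFN-γ 4 h, 18 for both 2 h, 6 for both against IFN-γ 2 h, 16 for both against IFN-γ 4 h, 14 for both against IL-4 2 h, 8 for IL-4 4 h against 2 h, 10 for IFN-γ 4 h against 2 h, 10 for IL-4 against IFN-γ 2 h and 6 for the interaction 4 h. With untreated replicate 1 as the lone control the number was 6 for the interaction 4 h. Leaving out a replicate number or a library gave 4 to 6 for IL-4 2 h, 4 to 17 for IL-4 4 h, 6 to 11 for IFN-γ 2 h, 6 to 17 for IFN-γ 4 h, 6 to 12 for both 2 h, 10 to 18 for both 4 h, 0 to 5 for both against IFN-γ 2 h, 3 to 15 for both against IFN-γ 4 h, 3 to 13 for both against IL-4 2 h, 12 to 21 for both against IL-4 4 h, 1 to 10 for IL-4 4 h against 2 h, 1 to 16 for IFN-γ 4 h against 2 h, 2 to 7 for both 4 h against 2 h, 2 to 13 for IL-4 against IFN-γ 2 h, 6 to 16 for IL-4 against IFN-γ 4 h, 1 to 3 for the interaction 2 h and 1 to 15 for the interaction 4 h. Of the 121 calls among 527 tested, 55 held without the block that pairs libraries by number, 102 without the filter, 120 with edgeR, 120 with DESeq2, and 68 under each left-out library; the pseudocount of 0.1 CPM lost no call. The lone control was chosen after seeing the data. Insig1 with IL-4 at 4 h turned from a log2 change of -0.03 to 0.45 on deposited CPM alone; the cause was not tested beyond the shift of all genes given above. Genes of a few CPM, such as Ch25h untreated and Nr1h3, rest on the fewest reads.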
